A study of Rattus norvegicus with 6 samples.

Results

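Cytochrome P450s, aldehyde dehydrogenases, aldo-keto reductases, carbonyl reductases and prostaglandin reductases were described in cultured rat brain microvascular endothelial cells (rBMECs) given homocysteine (Hcy) or vehicle (Veh). The members were the rows of the deposited gene count table whose symbol begins with Cyp, Aldh, Akr, Cbr or Ptgr followed by a digit, without the cholesterol synthesis enzyme Cyp51. The rule reads names and no measured value, though these families were picked with earlier results of these data known, and it gave 111 of the 33566 genes in the table, of which 71 were P450s, 18 aldehyde dehydrogenases, 17 aldo-keto reductases, 3 carbonyl reductases and 2 prostaglandin reductases. rBMECs are primary cells of the brain capillary wall, here from SD rats 18 to 22 days of age, purified in culture and used after a single passage. The labels place their origin in the cerebral cortex and the study's methods in the forebrain. Poly(A) RNA was sequenced from 3 Hcy and 3 Veh libraries after 24 h of treatment, and the series design calls the 3 of a group biological replicates. Hcy was dissolved in water, and water alone was the vehicle. The labels give a dose of 100 μM Hcy and also a prepared solution of 50 μM, and the study's methods give 50 μM, so the dose used is uncertain. All 6 libraries shared the isolation kit, medium and treatment time, and both groups were unmodified cells.

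P450s are haem enzymes that insert oxygen into steroids, fatty acids, retinoids and foreign compounds, with electrons passed on by a reductase. Aldehyde dehydrogenases oxidise aldehydes to acids, while aldo-keto, carbonyl and prostaglandin reductases spend NADPH to reduce carbonyls or the double bonds beside them. In brain capillaries these families are known for handling drugs, lipid aldehydes, retinoids and eicosanoids at the blood-brain barrier.

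Counts per library ranged from 14024997 to 16764584, and values below are CPM, counts scaled to a common library size after edgeR's TMM scaling. A level of 3 counts corresponded to 0.178 to 0.215 CPM and was taken as the floor, which covers counting error only. Of the endothelial markers listed, 14 of 16 were matched in the table and 13 had enough counts to be tested, and their summed level was 10102 to 10563 CPM in Hcy and 8699 to 10176 CPM in Veh. The endothelial junction gene Cldn5 had 0 counts in all 6 libraries. The microglial marker Ptprc, the astrocyte marker Aqp4 and the neuronal markers Rbfox3 and Snap25 were also at 0 in all 6, while other genes of those lists had counts. The whole lists summed to 113 to 151 CPM for astrocytes, 5.22 to 9.77 CPM for neurons and 1.45 to 2.66 CPM for microglia and leukocytes.

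Of the 111 members, 52 had at least 10 counts summed over the 6 libraries and were tested. The other 59 comprised 40 with 0 counts in every library and 19 with no more than 9 counts in all. Of the 52 tested, 5 passed a Benjamini-Hochberg adjusted p of 0.05 in edgeR's quasi-likelihood test over all 14603 tested genes, where 2.34% of all genes passed. Aldh7a1 rose in Hcy, and Akr1b8, Akr1b1, Cyp4f39 and Ptgr1 fell. Among all genes tested 1.32% passed upwards and 1.01% downwards. Cyp4f39 and Ptgr1 also fell by at least 1 on the log2 scale, so 2 of 52 members met both thresholds, where 0.486% of all genes did and 0.233% did downwards. No member met both thresholds upwards, in edgeR or in DESeq2, which gave no adjusted p for 6 members, against 0.253% of all genes in edgeR, and 3 members were higher at an unadjusted p of at most 0.05, where 7.44% of all genes were. At that unadjusted p 12 members were lower, which made 15 of 52 in both directions, where 13.4% of all genes passed and 5.95% passed downwards. Libraries of the groups were fully separated in 19 of the 52, 8 with Hcy above and 11 with Hcy below, and the same was seen in 20.1% of all genes tested, 10.8% above and 9.27% below. Cyp2j4 and Akr1c15 are in both the 12 and the 11, and Aldh8a1 is in the 8. These genes met the minimum of 10 counts mostly through the group where they were higher, so nothing is drawn from their p or lack of overlap. The median log2 fold change of the tested members was -0.04 and that of all tested genes -0.02, with 57.7% of members and 53.1% of all genes below 0.

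**Figure D1:**
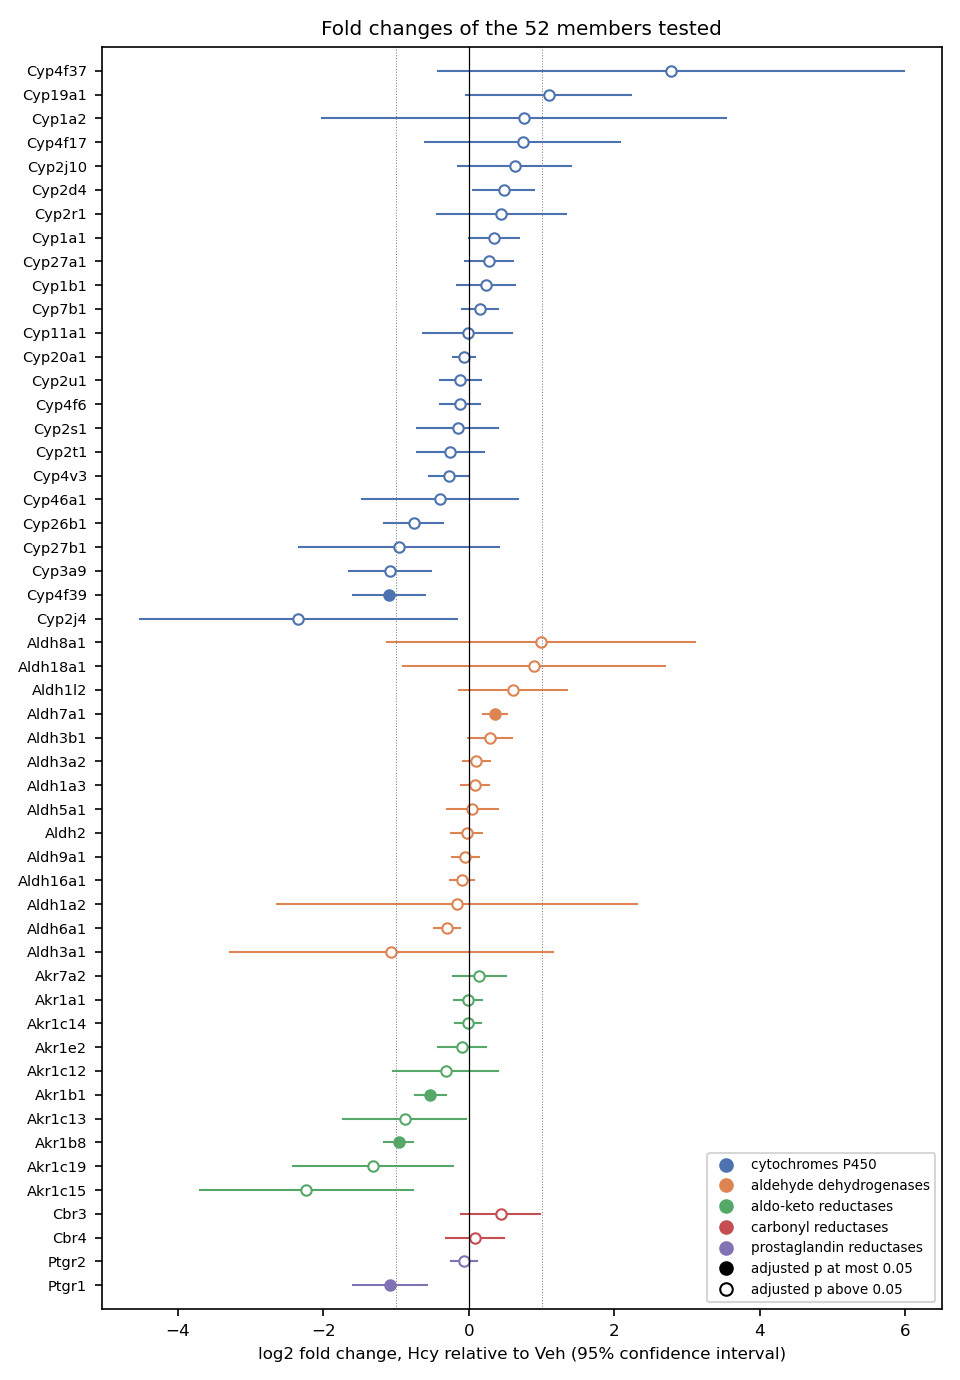
Log2 fold change, Hcy minus Veh, of each of the 52 members tested, with its 95% confidence interval from the edgeR fit; filled points passed an adjusted p of 0.05. The 4 filled points left of 0 are Akr1b8, Akr1b1, Cyp4f39 and Ptgr1, and the single filled point right of 0 is Aldh7a1.

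With single libraries left out, the number of members past the adjusted p was 7 without Veh replicate 3, 2 without Veh replicate 1 and 1 without each of the other 4 libraries. Over all genes 957 passed without Veh replicate 3, 151 without Veh replicate 1 and 80 to 123 without each of the others. Akr1b8 passed in each of the 6 fits. Akr1b1 passed without Veh replicate 1 or Veh replicate 3, and Aldh7a1, Cyp4f39 and Ptgr1 only without Veh replicate 3.

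Levels can be compared between genes only per length. In the mean over all 6 libraries 14 of the 52 tested members lay at 10 CPM per kilobase or more, 21 from 1 to below 10 and 17 below 1. The 14 were 7 aldehyde dehydrogenases, 5 aldo-keto reductases, Ptgr2 and a single P450, Cyp20a1, an orphan enzyme whose substrate is not settled. The order in Veh was Akr1a1 at 649 ± 75.0 CPM per kilobase (SD, n = 3), Akr1b8 at 546 ± 57.5, Aldh7a1 at 166 ± 9.91, Akr1b1 at 139 ± 16.9, Aldh1a3 at 78.2 ± 6.54, Aldh2 at 73.2 ± 7.81 and Cyp20a1 at 47.9 ± 1.49. Of these neighbours in Veh, Akr1a1 overlapped with Akr1b8, Aldh7a1 with Akr1b1 and Aldh1a3 with Aldh2 in the ranges of their libraries. The order in Hcy was the same, with Akr1a1 at 644 ± 22.0, Akr1b8 at 280 ± 14.3, Aldh7a1 at 214 ± 10.7, Akr1b1 at 96.0 ± 3.78, Aldh1a3 at 83.3 ± 5.76, Aldh2 at 71.8 ± 4.92 and Cyp20a1 at 45.7 ± 0.590 (SD, n = 3 each). In Hcy only Aldh1a3 and Aldh2 overlapped among these neighbours. Akr1b8 libraries ranged from 513 to 612 CPM per kilobase in Veh, against 597 to 735 for Akr1a1, and from 264 to 291 in Hcy, against 623 to 667 for Akr1a1.

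**Figure D2:**
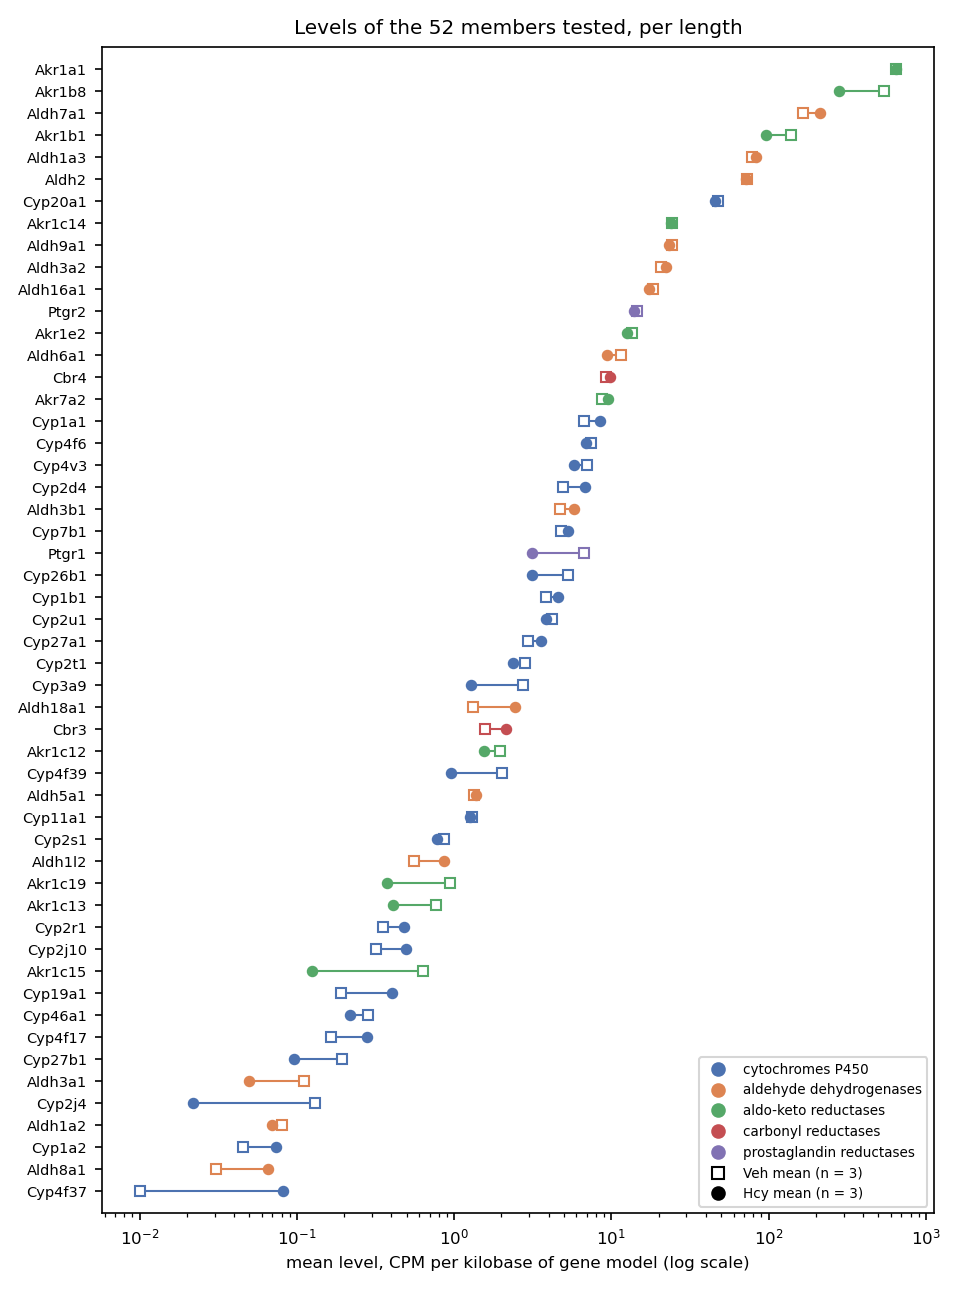
Mean level per length (CPM per kilobase of gene length, log axis) of the tested members in Veh (squares) and Hcy (circles). Akr1a1 and Akr1b8 lead in Veh at 649 and 546, while in Hcy Akr1b8 stands at 280.

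Summed over all 111 members, the level was 3603, 3576 and 4056 CPM in Veh replicates 1 to 3 and 3184, 3034 and 3116 CPM in Hcy replicates 1 to 3. The Hcy libraries lay below the Veh libraries without overlap, with means of 3111 ± 75.6 and 3745 ± 269.7 CPM (SD, n = 3). The mean difference was -634 CPM, and that of Akr1b8 alone was -657.5 CPM. Without Akr1b8 the sums were 2336, 2308 and 2543 CPM in Veh and 2464, 2381 and 2412 CPM in Hcy, which overlapped and differed by 23.5 CPM in the mean. Akr1b8 made up 35.2, 35.5 and 37.3% of member counts in the Veh libraries and 22.6, 21.5 and 22.6% in the Hcy libraries. These are bulk libraries, in which fewer cells of a type and less RNA per cell cannot be told apart.

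**Figure D3:**
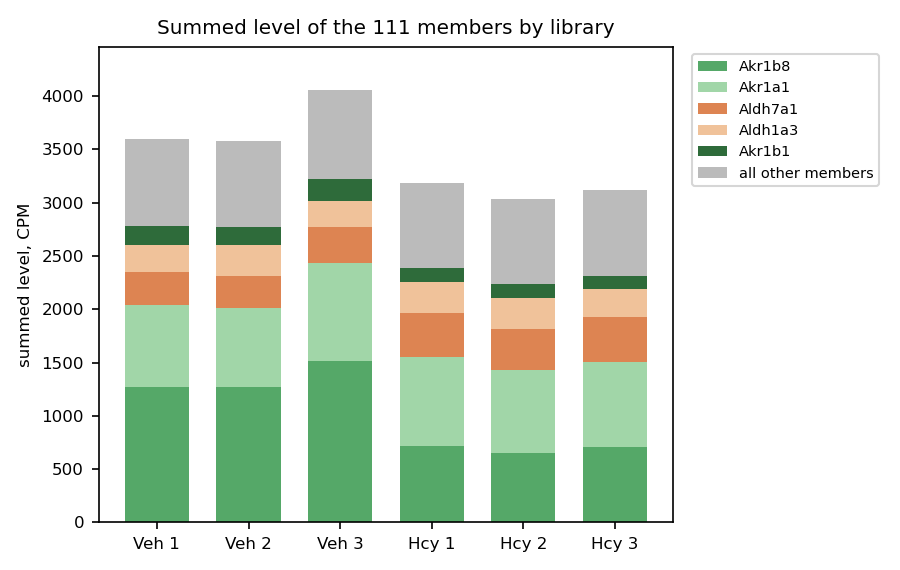
Stacked bars of the summed member level (CPM, from 0) in each library, with the 5 members of highest level per length shown apart from all others. The Hcy bars reach 3034 to 3184 and the Veh bars 3576 to 4056, and the Akr1b8 segment is the one that differs most.

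Among the aldo-keto reductases that reduce aldehydes and sugars, Akr1b8, a rodent enzyme known to reduce retinaldehyde and lipid aldehydes, fell most in CPM. Akr1b8 (ENSRNOG00000009734, listed on chromosome 4 from 61771970 to 61828657, plus strand) had 21345, 19899 and 21869 counts in Veh replicates 1 to 3 and 10032, 9713 and 11784 in Hcy replicates 1 to 3. In CPM these were 1267, 1268 and 1514 in Veh and 720.4, 652 and 703 in Hcy, and every Hcy library was below every Veh library. The means were 1349.6 ± 142 CPM in Veh and 692 ± 35.4 CPM in Hcy (SD, n = 3), a log2 fold change of -0.96 (SE 0.09, 95% confidence interval -1.16 to -0.77, edgeR adjusted p = 0.000965). This 1.95-fold lower level fell just short of the fold threshold. Without Veh replicate 1 or 2 the log2 fold change was -1.01 and it met both thresholds, and without Veh replicate 3 it was -0.87. The genes of the same Swiss-Prot match, Akr1b7 and LOC100910708, had 0 counts in all 6 libraries.

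Akr1b1 encodes aldose reductase, which turns glucose into sorbitol at the start of the polyol pathway. Akr1b1 (ENSRNOG00000009513, chromosome 4 from 61706864 to 61720956, minus strand) is listed on the same chromosome as Akr1b8. Its level was 172, 173 and 212 CPM in Veh replicates 1 to 3 and 134, 127 and 124 CPM in Hcy replicates 1 to 3, with no overlap. It fell by 0.53 on the log2 scale (SE 0.09, 95% confidence interval -0.74 to -0.32, edgeR adjusted p = 0.0232). Leaving out Hcy replicate 1, 2 or 3 or Veh replicate 2 gave adjusted p of 0.0937, 0.111, 0.141 and 0.0515. Akr1a1, the general aldehyde reductase and the member of highest level per length, was at 769, 748 and 920.4 CPM in Veh and 836, 781 and 803 CPM in Hcy. The Akr1a1 groups overlapped, with a log2 fold change of -0.01 and a 95% confidence interval of -0.21 to 0.19.

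The hydroxysteroid-type aldo-keto reductases, which act on steroids and prostaglandins, had 11 members, of which 5 were at 0 in all libraries and 6 were tested. All 6 had log2 fold changes below 0, with a median of -0.60, where 53.1% of all genes were below 0. None passed the adjusted p in edgeR or in DESeq2. At the unadjusted p 3 were lower, where 5.95% of all genes were. Akr1c15 had 19, 11 and 10 counts in Veh replicates 1 to 3 and 1, 1 and 6 in Hcy replicates 1 to 3, so both low Hcy libraries lay under the floor of 3 counts. Its groups did not overlap and its log2 fold change was -2.24 (SE 0.65, edgeR adjusted p = 0.143), which became -3.46 without Hcy replicate 3 and -1.88 without Hcy replicate 2. Akr1c15 met the minimum of 10 counts mostly through Veh, the group where it was higher. Nothing is drawn from its p or its lack of overlap. Akr1c19 had 27, 11 and 22 counts in Veh and 10, 4 and 9 in Hcy, with a log2 fold change of -1.32 (edgeR adjusted p = 0.258), and Akr1c13 had 16, 16 and 12 against 6, 8 and 9, with -0.88 (edgeR adjusted p = 0.343). Akr1c13 shares its Swiss-Prot match with Akr1c12, and counting can have divided reads between the pair. The most abundant of the group, Akr1c14, which interconverts steroid alcohols and ketones, was at 60.3, 52.9 and 56.3 CPM in Veh and 52.6, 58.3 and 57.1 CPM in Hcy. The Akr1c14 groups overlapped, and the log2 fold change was -0.01. Akr7a2, which reduces succinic semialdehyde and other aldehydes, was the single tested aldo-keto reductase with a log2 fold change above 0, at 0.15 (95% confidence interval -0.22 to 0.51). The Akr7a2 value ran from 0.06 without Veh replicate 1 to 0.29 without Veh replicate 3.

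**Figure D4:**
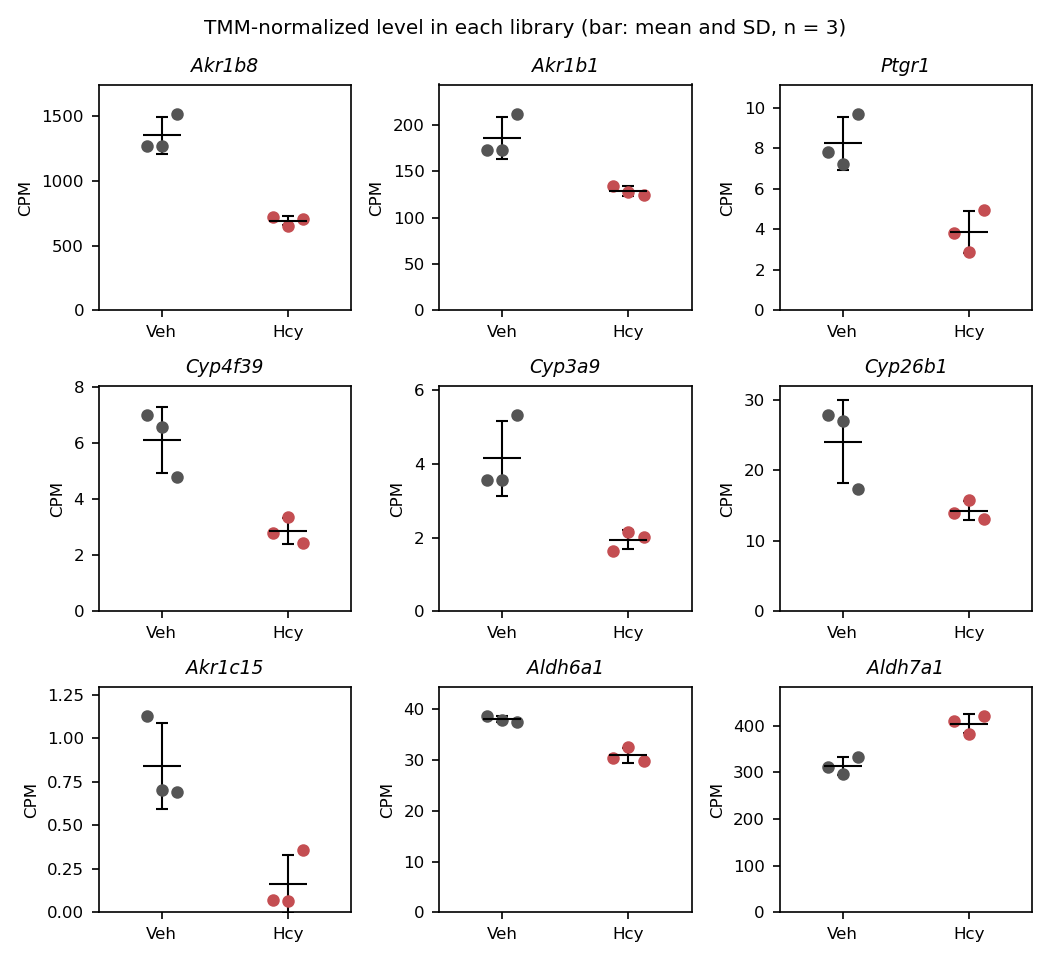
Level (CPM) of 9 members in each library, as points by group with a bar for the mean and the SD of 3 libraries; each panel has its own axis. Hcy lies below Veh without overlap in Akr1b8, Akr1b1, Ptgr1, Cyp4f39, Cyp3a9, Cyp26b1, Akr1c15 and Aldh6a1, and above it in Aldh7a1. Akr1c15 met the minimum of 10 counts mostly through Veh, so nothing is drawn from its lack of overlap.

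Ptgr1 and Ptgr2 reduce oxidised prostaglandins, and Ptgr1 also inactivates leukotriene B and reduces lipid alkenals. Ptgr1 (ENSRNOG00000015072, chromosome 5 from 76110738 to 76129441, minus strand) had 132, 113 and 140 counts in Veh replicates 1 to 3 and 53, 43 and 83 in Hcy replicates 1 to 3. Every Hcy library was below every Veh library, and the means were 8.24 ± 1.29 CPM in Veh and 3.88 ± 1.03 CPM in Hcy (SD, n = 3). Ptgr1 fell by 1.08 on the log2 scale (SE 0.22, 95% confidence interval -1.58 to -0.57, edgeR adjusted p = 0.0443). Leaving out single libraries other than Veh replicate 3 gave adjusted p of 0.0692 to 0.171. Ptgr2 was at 42.6, 46.6 and 42.6 CPM in Veh and 40.1, 43.8 and 42.3 CPM in Hcy. These overlapped, and the log2 fold change of Ptgr2 was -0.06 (95% confidence interval -0.24 to 0.12). Of the carbonyl reductases, Cbr3 had a log2 fold change of 0.44 (edgeR adjusted p = 0.492) with every Hcy library above every Veh library, and Cbr4, a mitochondrial reductase of fatty acid synthesis, had 0.09. Cbr1 was listed with 6 counts summed over all libraries and was not tested. LOC102556347, a row with the same Swiss-Prot match as Cbr1, had 135, 117 and 174 counts in Veh and 111, 108 and 124 in Hcy, so the level of Cbr1 cannot be read from its own row alone.

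Of the 18 aldehyde dehydrogenases 14 were tested, 8 with a log2 fold change above 0 and 6 below, and their median was 0.07. Aldh7a1 oxidises the semialdehyde of lysine breakdown and betaine aldehyde. Aldh7a1 (ENSRNOG00000014645, chromosome 18 from 51619007 to 51651267, minus strand) was at 311, 296 and 334 CPM in Veh replicates 1 to 3 and 411, 382 and 421 CPM in Hcy replicates 1 to 3. All Hcy libraries were above all Veh libraries. It rose by 0.37 on the log2 scale (SE 0.07, 95% confidence interval 0.20 to 0.53, edgeR adjusted p = 0.0386), a 1.29-fold higher level. The adjusted p lay between 0.0961 and 0.220 in the 5 fits that left out a library other than Veh replicate 3, and was 0.00287 without that library. Aldh6a1, which oxidises the semialdehydes of valine and thymine breakdown, was at 38.6, 37.8 and 37.5 CPM in Veh and 30.3, 32.6 and 29.8 CPM in Hcy. Its groups did not overlap, and its log2 fold change of -0.30 (SE 0.08) did not pass, with an edgeR adjusted p of 0.111 that became 0.0467 without Veh replicate 3.

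The other abundant aldehyde dehydrogenases had log2 fold changes near 0, with intervals that include 0. Aldh1a3, which makes retinoic acid from retinaldehyde, was at 258, 289.7 and 247 CPM in Veh and 291, 295 and 259.7 CPM in Hcy, with overlap and a log2 fold change of 0.09 (95% confidence interval -0.10 to 0.28). Aldh2, the mitochondrial enzyme of acetaldehyde removal, was at 134, 125 and 153 CPM in Veh and 145, 131 and 128 CPM in Hcy. Aldh2 overlapped too, with a log2 fold change of -0.03 (95% confidence interval -0.24 to 0.19). The fatty aldehyde dehydrogenase Aldh3a2 had a log2 fold change of 0.10 (95% confidence interval -0.08 to 0.29), and Aldh9a1, which serves carnitine synthesis, had -0.05 (95% confidence interval -0.23 to 0.14). Aldh3b1, which also takes fatty aldehydes, had every Hcy library above every Veh library and a log2 fold change of 0.29 (edgeR adjusted p = 0.39). Members known from other brain cells or tissues were near the floor, with 7 counts summed over all libraries for Aldh1a1 and 5 for Aldh1l1, the cytosolic folate enzyme that marks astrocytes. Its mitochondrial counterpart Aldh1l2 was tested, with a log2 fold change of 0.61 (edgeR adjusted p = 0.488) and overlapping groups. That value ran from 0.38 without Hcy replicate 1 to 0.85 without Veh replicate 1.

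Aldh18a1, which makes the proline precursor pyrroline carboxylate, varied more within groups than between them. It had 9, 123 and 73 counts in Veh replicates 1 to 3 and 171, 162 and 31 in Hcy replicates 1 to 3. LOC108348083, which has the same Swiss-Prot match, had 4, 6 and 4 counts in Veh and 8, 140 and 2 in Hcy. Summed over the pair, Veh had 13, 129 and 77 counts and Hcy 179, 302 and 33, so the spread between libraries stood in the sum as well. The log2 fold change of Aldh18a1 was 0.90 with a 95% confidence interval of -0.90 to 2.69. It ran from 0.36 without Veh replicate 1 to 1.59 without Veh replicate 2.

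P450s were mostly at or near the floor, with 32 of 71 at 0 in all libraries and 24 tested, 11 with a log2 fold change above 0 and 13 below. In family 4, whose enzymes hydroxylate the ends of fatty acids, 5 of 16 members were tested. Cyp4f39, a fatty acid hydroxylase, (ENSRNOG00000029478, chromosome 7 from 14441476 to 14515212, plus strand) had 118, 103 and 69 counts in Veh replicates 1 to 3 and 39, 50 and 41 in Hcy replicates 1 to 3. That was 7.00, 6.56 and 4.78 CPM against 2.80, 3.36 and 2.45 CPM, with no overlap. Cyp4f39 was the single P450 that passed in the main edgeR fit, and it fell by 1.09 on the log2 scale (SE 0.22, 95% confidence interval -1.59 to -0.60, edgeR adjusted p = 0.0392). Without single libraries other than Veh replicate 3 the adjusted p was 0.0887 to 0.184. Cyp4v3, which hydroxylates fatty acids and is known from the eye, was at 28.97, 26.6 and 22.3 CPM in Veh and 20.1, 21.2 and 22.9 CPM in Hcy. Its highest Hcy library was above its lowest Veh library, and its log2 fold change was -0.28 (edgeR adjusted p = 0.351). Cyp4f37 had 0, 0 and 1 counts in Veh and 0, 4 and 5 in Hcy, with overlap. It met the minimum of 10 counts mostly through Hcy, so nothing is drawn from its difference. Its log2 fold change had a 95% confidence interval of -0.42 to 5.98 (edgeR adjusted p = 0.463).

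Cyp26b1, which clears retinoic acid, was the only tested member of its group, since Cyp26a1 and Cyp26c1 had 4 counts each over all libraries. Cyp26b1 (ENSRNOG00000015076, chromosome 4 from 116261796 to 116278615, minus strand) was at 27.8, 27.02 and 17.4 CPM in Veh replicates 1 to 3 and 14.0, 15.8 and 13.1 CPM in Hcy replicates 1 to 3. The groups did not overlap, and Veh replicate 3 lay nearer to the Hcy libraries than to the other Veh libraries. The log2 fold change was -0.76 (SE 0.18), which did not pass in edgeR (adjusted p = 0.075). It did pass in DESeq2 (adjusted p = 0.00337) and in edgeR with a minimum of 1 count (adjusted p = 0.0208), with the replicate number as a block (adjusted p = 0.0385) and without Veh replicate 3 (adjusted p = 0.00115). In edgeR without each of the other libraries the adjusted p of Cyp26b1 was 0.158 to 0.294. Under the other alternatives that kept all libraries it was 0.0724 to 0.0913. The other retinoid genes listed comprised 10 tested. Of these, Rdh10, which makes retinaldehyde, and the retinol dehydrogenase Dhrs9 fell past the adjusted p in edgeR, where 1.01% of all genes did. Rdh10 was at 30.3, 31.5 and 32.2 CPM in Veh and 21.2, 22.3 and 23.6 CPM in Hcy, and it fell by 0.49 on the log2 scale (edgeR adjusted p = 0.0262). Dhrs9 fell by 0.36 (edgeR adjusted p = 0.0438), and the median of the 10 was -0.08.

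Cyp3a9 belongs to the family of P450s best known for oxidising drugs and steroids. Cyp3a9 (ENSRNOG00000046643, chromosome 12 from 19074583 to 19114399, minus strand) had 60, 56 and 77 counts in Veh replicates 1 to 3 and 23, 32 and 34 in Hcy replicates 1 to 3, with no overlap. Its log2 fold change was -1.09 (SE 0.25), with an adjusted p of 0.063 in edgeR, 0.0426 in edgeR with a minimum of 1 count and 0.0274 in DESeq2. With single libraries left out the edgeR adjusted p of Cyp3a9 was 0.0744 to 0.234, so it passed in none of these fits. The other 3 family 3 P450s were not tested, and 2 of them were at 0.

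All 3 family 1 P450s, known as targets of the aryl hydrocarbon receptor (AHR), had log2 fold changes above 0, and none passed the adjusted p in edgeR, or in DESeq2, which gave no adjusted p for Cyp1a2. Cyp1a1 was at 19.9, 18.7 and 14.5 CPM in Veh and 20.7, 20.8 and 26.1 CPM in Hcy. The lowest Hcy library lay just above the highest Veh library, and the log2 fold change was 0.35 (95% confidence interval 0.01 to 0.68, edgeR adjusted p = 0.357), the only one of the 3 past the unadjusted p. Cyp1b1, a main P450 of brain microvessels, was at 24.4, 23.3 and 16.1 CPM in Veh and 20.7, 26.8 and 27.7 CPM in Hcy, with overlap and a log2 fold change of 0.24 (95% confidence interval -0.16 to 0.63). With single libraries left out, Cyp1a1 ran from 0.22 to 0.44 and Cyp1b1 from 0.07 to 0.36, both lowest without Veh replicate 3. Of the 14 tested genes of the AHR and other foreign-compound receptors none passed in edgeR, or in DESeq2, which gave no adjusted p for 2 of them. At the unadjusted p, which 13.4% of all genes passed, 3 of the 14 did. These were Tiparp, an AHR target, at -0.46 (edgeR adjusted p = 0.2), Ahrr, the repressor of AHR, at 0.90 (edgeR adjusted p = 0.271), and the vitamin D receptor Vdr. Vdr had 0, 1 and 0 counts in Veh and 4, 3 and 2 in Hcy (edgeR adjusted p = 0.324). It met the minimum of 10 counts mostly through Hcy, the group where it was higher, so nothing is drawn from its p.

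The P450s of sterols, steroids and vitamin D had 14 members, of which 7 were at 0 and 7 tested, with a median log2 fold change of 0.16. None passed the adjusted p in edgeR or DESeq2, or the unadjusted p. Cyp7b1, which hydroxylates oxysterols, was at 13.4, 14.1 and 13.2 CPM in Veh and 14.2, 15.9 and 15.2 CPM in Hcy, a log2 fold change of 0.16 (edgeR adjusted p = 0.609). Cyp27a1, the sterol side-chain hydroxylase, was at 6.53, 6.88 and 6.64 CPM in Veh and 9.12, 7.66 and 7.58 CPM in Hcy, a log2 fold change of 0.28 (edgeR adjusted p = 0.472). In both genes and in Cyp2r1, which activates vitamin D, the Hcy libraries lay above the Veh libraries without overlap. In family 2, 18 of 30 members were at 0 and 6 were tested. None of the 6 passed the adjusted p in edgeR, or in DESeq2, which gave no adjusted p for Cyp2j4. At the unadjusted p, which 13.4% of all genes passed, 2 of the 6 did. These were Cyp2d4, a drug and amine oxidising enzyme of rat brain, with a log2 fold change of 0.48 (edgeR adjusted p = 0.294), and Cyp2j4, an arachidonic acid epoxygenase. Cyp2j4 had 6, 2 and 4 counts in Veh and 0, 1 and 1 in Hcy, with no overlap and an edgeR adjusted p of 0.325. It met the minimum of 10 counts through Veh, the group where it was higher, so nothing is drawn from its p or its lack of overlap. Cyp2j10, which shares its Swiss-Prot match, had 25, 17 and 17 counts in Veh and 19, 24 and 47 in Hcy, and reads can have been divided between the pair. Cyp2u1, which hydroxylates long-chain fatty acids, was at 11.1, 10.96 and 10.2 CPM in Veh and 9.05, 10.0 and 10.7 CPM in Hcy, which overlapped. Cyp20a1, the P450 of highest level per length, was at 97.1, 91.6 and 96.2 CPM in Veh and 91.8, 89.5 and 91.0 CPM in Hcy. The Cyp20a1 groups overlapped, with a log2 fold change of -0.07 (95% confidence interval -0.22 to 0.09).

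The bases before the gene starts are shown for Akr1b8, the member that passed the adjusted p without each library, and for Cyp4f39, the P450 that passed it in the main edgeR fit. They are also shown for Cyp26b1, whose window held both motifs searched for NRF2 and AHR, as did that of Aldh1a2. Sequences are RefSeq's on GRCr8, 250 bases ending just before the start, 5′ to 3′ on the gene's strand, and a window was found by symbol for 88 of the 111 members and 41 of the 52 tested. Akr1b1 and Ptgr1 had none. Capitals mark the antioxidant response element core (TGACNNNGC, bound by NRF2) and the xenobiotic response element core (GCGTG, bound by AHR), on either strand, so that CACGC is the latter on the other strand.
Akr1b8: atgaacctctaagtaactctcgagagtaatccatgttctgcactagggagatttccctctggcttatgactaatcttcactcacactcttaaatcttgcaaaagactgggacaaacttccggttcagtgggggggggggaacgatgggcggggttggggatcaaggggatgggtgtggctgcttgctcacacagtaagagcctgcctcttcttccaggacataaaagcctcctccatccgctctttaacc
Cyp4f39: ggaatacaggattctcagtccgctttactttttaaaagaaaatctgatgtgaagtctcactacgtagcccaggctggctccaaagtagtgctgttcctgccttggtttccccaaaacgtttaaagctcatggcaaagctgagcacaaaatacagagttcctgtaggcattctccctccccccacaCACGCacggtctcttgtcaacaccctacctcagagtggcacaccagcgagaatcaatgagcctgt
Cyp26b1: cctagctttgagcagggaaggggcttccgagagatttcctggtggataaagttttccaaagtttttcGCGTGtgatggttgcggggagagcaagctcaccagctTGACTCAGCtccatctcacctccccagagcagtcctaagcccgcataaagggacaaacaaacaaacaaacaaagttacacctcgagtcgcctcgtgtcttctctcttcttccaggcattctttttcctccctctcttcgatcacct
The Akr1b8 window lies at chr4:63964171-63964420 on the plus strand, that of Cyp4f39 at chr7:12083638-12083887 on the plus strand and that of Cyp26b1 at chr4:118616177-118616426 on the minus strand. The Akr1b8 window held neither motif. The Cyp4f39 window held the xenobiotic core 65 bases upstream. The Cyp26b1 window held the xenobiotic core 183 bases upstream and the antioxidant core 146 bases upstream, where the same letters also match an AP-1 site (TGANTCA). Over the 41 windows of tested members, the antioxidant core was found in 6, or 14.6%, against 10.1% of the 33469 windows in the RefSeq table. The 6 were Akr1c15, Aldh16a1, Aldh1a2, Cyp26b1, Cyp2s1 and Cyp4f37. The xenobiotic core was found in 15, or 36.6%, against 25.9% of all windows, and among them were Cyp1b1, Aldh7a1, Aldh1a3 and Cyp20a1. The AP-1 site was found in 2, or 4.88%, against 6.34% of all windows. These were Cyp26b1 and Cyp3a9. A match is a run of letters and was not tested as a binding site.

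Genes that work with these enzymes were taken from lists of partners and set beside the members. The P450 electron donors, among them the reductase Por, had 10 genes tested, and none passed the adjusted p in edgeR or DESeq2, or the unadjusted p. Por was at 137, 122 and 121 CPM in Veh and 140.1, 129.8 and 140.5 CPM in Hcy, with overlap and a log2 fold change of 0.11 (edgeR adjusted p = 0.616). All 8 tested genes of haem synthesis, which supplies the P450 cofactor, had log2 fold changes below 0 with a median of -0.13, where 53.1% of all genes were below 0. None of the 8 passed the adjusted p in edgeR or DESeq2, and 1 was lower at the unadjusted p, where 5.95% of all genes were. Other alcohol and aldehyde enzymes, 16 tested, had a median of -0.07, and none passed the adjusted or unadjusted p in edgeR, or the adjusted p in DESeq2, which gave none for 2 of them.

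NRF2 is the transcription factor of the oxidant response, and several aldo-keto reductases and Ptgr1 are known among its targets. Of 21 tested genes of NRF2 and its targets outside the families, 4 had log2 fold changes above 0 and 17 below, with a median of -0.18. In edgeR, where 1.01% of all genes tested passed the adjusted p downwards, 5 of the 21 did. They were Hmox1, Nqo1, Osgin1, Txnrd1 and Maff. Nqo1, a quinone reductase, was at 744.7, 732 and 857 CPM in Veh and 383, 372 and 403 CPM in Hcy, with no overlap. Txnrd1, thioredoxin reductase, fell by 0.35 on the log2 scale (edgeR adjusted p = 0.0232) and the small Maf protein gene Maff by 0.34 (edgeR adjusted p = 0.0209). The transcript of NRF2 itself, Nfe2l2, was at 290.4, 306 and 290.2 CPM in Veh and 297, 286 and 310.4 CPM in Hcy, with overlap and a log2 fold change of 0.01. Of 16 tested conjugation enzymes, the glutathione transferase Gsta1 alone passed in edgeR, where 1.01% of all genes passed downwards. Gsta1 fell by 1.69 (SE 0.31, edgeR adjusted p = 0.0272). In DESeq2, which gave no adjusted p for 1 of the 16, 2 fell past the adjusted p. The median over the 16 was -0.03. The sterol synthesis genes, here with Cyp51, were the list with most values above 0, 14 of 15 tested with a median of 0.21. Of the 15, 1 rose past the adjusted p in edgeR, where 1.32% of all genes did, and 3 in DESeq2. At the unadjusted p 10 were higher, where 7.44% of all genes were.

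**Figure D5:**
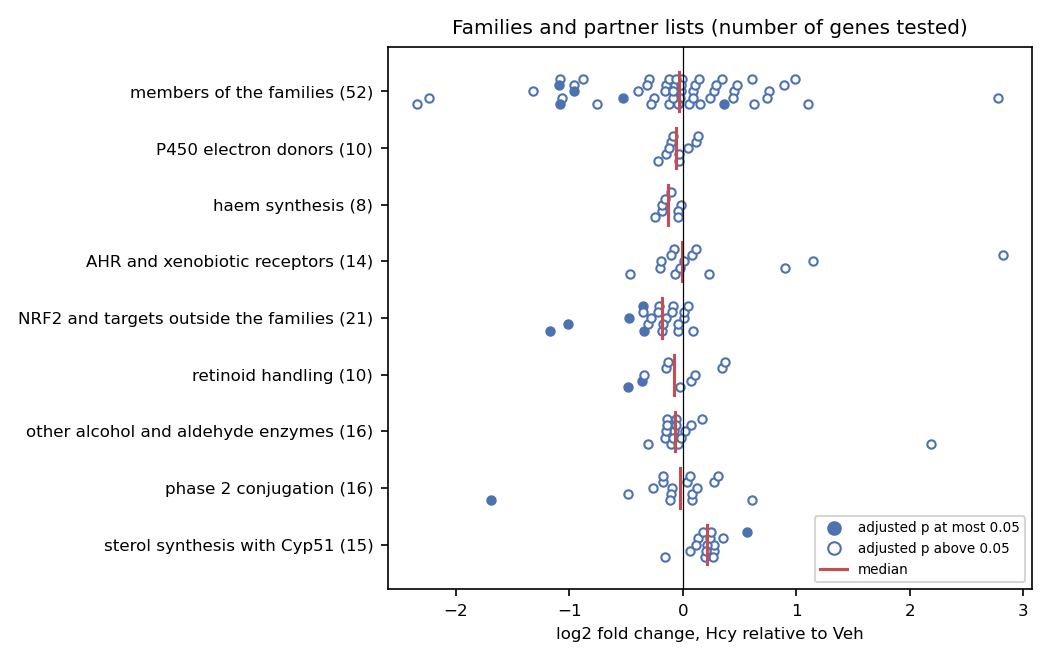
Log2 fold change, Hcy minus Veh, of each tested gene in each partner list and in the members, as points with the median as a red line; filled points passed an adjusted p of 0.05. The medians run from -0.18 in NRF2 and its targets to 0.21 in sterol synthesis, with the members at -0.04.

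Of the marker lists of other cell types, the mural, epithelial and astrocyte sums lay lower in Hcy without overlap. The fibroblast list summed to 44.9 to 68.7 CPM in Hcy and 63.5 to 91.2 CPM in Veh, which overlapped. The sums of the neuron, oligodendrocyte, and microglia and leukocyte lists overlapped too. No gene of these overlapping lists passed the adjusted p in edgeR. Of 9 mural cell markers, all tested, 5 had log2 fold changes above 0 and 4 below. In edgeR 2 fell past the adjusted p, where 1.01% of all genes did, and none rose past it. The 2 were Tagln, lower by 0.88 on the log2 scale (edgeR adjusted p = 0.000801), and Acta2, by 0.64 (edgeR adjusted p = 0.0248), both contractile genes. The summed mural level was 673 to 699 CPM in Hcy and 1103 to 1330 CPM in Veh, while the median log2 fold change over the 9 was 0.55, of opposite sign to the sum. None of the 9 was at 0 in all libraries, and the pericyte gene Pdgfrb was low, at 2.72 CPM in Hcy and 1.64 CPM in Veh in the mean. The epithelial list, with 6 markers of which 3 were tested, summed to 0.934 to 1.41 CPM in Hcy and 2.91 to 3.57 CPM in Veh, and its Cldn4 fell by 1.92 (edgeR adjusted p = 0.0165), while Epcam was near 0. The astrocyte list, with 4 of 6 markers tested and 3 of these lower, summed to 113 to 117 CPM in Hcy and 126 to 151 CPM in Veh, with Aqp4 and Slc1a2 at 0. Nearly all of that sum was the connexin gene Gja1, which endothelial cells also express, with a log2 fold change of -0.28 (edgeR adjusted p = 0.152), while Gfap had a mean of 0.177 CPM in Hcy and 0.0425 CPM in Veh. The part of these lists in the fall of Akr1b8, Akr1b1, Cyp4f39 and Ptgr1 was not tested.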

How the data were processed

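Poly(A) RNA of 3 Hcy and 3 Veh libraries was analysed, grouped by their titles. The authors deposited a table of unnormalized read counts with gene positions and lengths, and the count table names no genome build. The submitters' processing notes name fastp, HISAT2 2.2.1, StringTie 2.2.3, Cufflinks, featureCounts 2.0.6 and DESeq2 1.42.0, and the builds mRatBN7.2 and rn7, without their roles. Positions are printed as listed and extend to 282724300 on chromosome 1, past the end of that chromosome in mRatBN7.2, so they are not on that build. Since the strand setting of counting is not given in the sources used here, overlapping genes and near-identical copies can share reads. The deposited gene length, in bases, was used for levels per kilobase. A deposited table of the authors' own comparison, with normalized values, log2 fold changes and p-values, was not used.

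Counts were analysed in R 4.3.3 with edgeR 4.0.16. Genes with at least 10 counts summed were kept, scaled by TMM factors (0.977 to 1.02) and compared by the quasi-likelihood test (glmQLFTest) with condition as the only term. P-values were Benjamini-Hochberg adjusted over all 14603 genes. Log2 fold changes used a prior count of 0.125, and the fold threshold was 1. Intervals of fold changes are at 95%, and a floor is 3 counts. The functions were tested on simulated data.

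The members and partner and marker lists were chosen with earlier results of these data known. Named genes were members with an adjusted or unadjusted p of at most 0.05, the 3 of highest level per length in each role, members fixed for their known roles and partner genes past the adjusted p, except a result that is not reported here. Cyp2r1, Cyp2j10 and Cyp4f37 were named after their values were seen. The alternatives were DESeq2, its size factors, library totals alone, other count filters, a prior count of 2, the replicate number as a block and leaving out each library. P-values measure the spread between libraries, and a shared isolation behind equal replicate numbers is not stated.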

Additional observations from a re-analysis of the deposited data

How the results depend on the processing

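Of the 44 tested members named by the rule, none changed direction under those of the 7 alternatives that kept all libraries and gave it a value, and the 5 past the adjusted p stayed past it there. Cyp26b1 passed in addition under 3 of them (DESeq2, a minimum of 1 count and the block) and Cyp3a9 under 2 (DESeq2 and a minimum of 1 count). The count of members past the adjusted p was 7 with DESeq2, 7 with a minimum of 1 count and 6 with the replicate number as a block, against 5, and that of members past both thresholds was 3, 3 and 2, against 2. Of all genes with an adjusted p, 4.59, 2.48 and 2.04% passed it in these fits and 0.76, 0.583 and 0.562% passed both thresholds. The block changed no other call among the members. Same-numbered libraries had correlations of 0.0237, 0.166 and 0.0581 between their deviations from the group means, against -0.184 to 0.129 for the other combinations. Hcy replicates 2 and 3 correlated best with the Veh library of their own number. Hcy replicate 1 correlated best with Veh replicate 3, at 0.129. These values do not settle whether the numbers are pairs, and the main fit did not take them as pairs.

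With single libraries left out, between 0 and 1 members met both thresholds, while 3 to 7 met the fold threshold at an unadjusted p of at most 0.05 in edgeR, as did 2.31 to 2.54% of all genes. Over all genes 39 to 112 met both thresholds. Members of few counts, such as Aldh1a2, Aldh3a1, Aldh8a1, Cyp1a2 and Cyp2j4, had no value under edgeR's filterByExpr, and Cyp2r1, Cyp2j10 and Cyp4f37 were not followed across alternatives. The count past the adjusted p was 1 to 7, against 80 to 957 of all genes. The median of the members lay between -0.0594 and -0.0155, and the count of partner genes past both thresholds between 1 and 3, with 1 without Hcy replicate 2. The direction changed in 7 members near 0, for which the cause was not tested. Their log2 fold changes ran from -0.0683 to 0.0886 for Akr1a1, -0.0594 to 0.0374 for Akr1c14, -0.19 to 0.0790 for Akr1e2, -0.83 to 0.18 for Aldh1a2, -0.0943 to 0.0587 for Aldh2, -0.0195 to 0.31 for Cbr4 and -0.19 to 0.21 for Cyp11a1.

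The 14 tested members with under 100 counts in all, such as Akr1c15 and Cyp2j4, are limited by depth. The 59 members not tested had too few counts to compare, which says nothing of their absence.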
